A study of Homo sapiens with 2 samples.

Results

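The amino acid transporter genes analysed here are the protein-coding genes whose symbols join SLC1A, SLC3A, SLC7A, SLC36A, SLC38A or SLC43A to a number, with 1 gene left out beforehand. They number 40 of 20033 protein-coding genes in the RefSeq table for GRCh38.p14. Membership follows from the symbol alone. CUT&Tag had been run on CAL27, an established line from an oral squamous cell carcinoma, with an antibody that recognises lactylated lysine on any protein. In CUT&Tag the antibody leads a protein A-Tn5 transposase to cut DNA beside the modification, so that piled-up tags show where it lies. The 2 libraries came from cells left untreated and from cells kept in 10 mM lactate for 24 hours, both prepared in the same way, and no antibody-free library was used here. They held 15696147 and 15120031 tags and gave 43680 and 50352 regions. In each deposited list the run name, the input file and all peak names carry the other sample's name, 108679 names in all. The sample labels were kept, the groups are named by label as the untreated-labelled and the lactate-labelled library, and exchanging the lists would turn every direction given below. With 1 library per group there is no replicate check, no test was run and no p-value is given.

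Amino acid transporters move amino acids across the plasma membrane or the lysosomal membrane, usually by exchange or together with sodium or protons. SLC7A light chains reach the surface bound to an SLC3A heavy chain, and the pair of SLC7A5 and SLC3A2 imports leucine and other large neutral amino acids in exchange for glutamine. SLC1A5 carries glutamine and other neutral amino acids, and SLC7A11 brings in cystine for glutathione synthesis in exchange for glutamate. These 4 genes are often highly expressed in carcinomas, where the imported amino acids feed growth and activate the kinase complex mTORC1. SLC38A members carry glutamine and small neutral amino acids, SLC36A members include transporters coupled to protons, and SLC43A members include facilitators for large neutral amino acids.

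Of the 4 carcinoma-associated genes, SLC3A2 and SLC7A11 were marked at an end in both libraries, SLC7A5 in the untreated-labelled library alone and SLC1A5 in neither. A gene was called marked when a region of the peak list overlapped 1 kb to either side of either end of the annotated gene. A region is a deposited peak, with summits of the same start and end counted once. Each region has a pileup, the number of tags stacked at its summit, and a fold enrichment, the authors' ratio of that pileup plus 1 to the local background plus 1. Fold enrichments rank regions within a list. Coordinates are on hg38.

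SLC3A2, the CD98 heavy chain gene, lies at chr11:62856109-62888860. Its start carried a region at chr11:62855618-62856303 in the untreated-labelled library, with 27 tags (1.72 per 1000000 tags) and a fold enrichment of 5.02. In the lactate-labelled library the region at chr11:62855679-62856308 held 33 tags (2.18 per 1000000) with a fold enrichment of 6.20. The ratio of the depth-scaled pileups was 1.27, with a 95% interval (exact Clopper-Pearson, covering counting error only) from 0.740 to 2.19, so the libraries were not distinguishable there at this depth. The same region lies at the end of SNHG1, the host gene of several small nucleolar RNAs, and cannot be assigned to SLC3A2 alone. Inside the gene stood a further site, beside an annotated inner start 24.8 kb from the outermost one. It was split into 3 regions in the untreated-labelled library, with 27, 14 and 15 tags, and formed 1 region of 1390 bp in the lactate-labelled library, with 37 tags and a fold enrichment of 7.12. Between the highest summits, 8 bp apart, the ratio was 1.42 (interval 0.843 to 2.43).

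SLC1A5, the glutamine transporter gene at chr19:46774883-46788594, had no region in either end window. It carried 2 regions inside in each library, 1.46 per 10 kb of gene, the highest density among the 40 genes in both libraries. The stronger site had its summit 40 and 42 bp from an inner annotated start, 3.78 kb from the outermost start. It held 31 tags with a fold enrichment of 6.04 in the untreated-labelled library (chr19:46784719-46785059) and 28 tags with 4.79 in the lactate-labelled library (chr19:46784704-46785115). The ratio was 0.938 (interval 0.542 to 1.62). The weaker site held 20 and 18 tags, and with end windows of 2 kb in place of 1 kb it marked the gene in both libraries.

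SLC7A5, which encodes the leucine transporter LAT1, occupies chr16:87830023-87869507. In the untreated-labelled library 1 region, chr16:87870492-87870721, reached into the start window with its summit 1108 bp upstream of the start. It held 17 tags, but its fold enrichment of 2.56 was near the lowest of the list, at a percentile of 0.484. In the lactate-labelled library the nearest region to an end lay 1108 bp beyond the far end. With a window of 2 kb the gene therefore counts as marked in both libraries, but at opposite ends. Inside lay 2 regions in the untreated-labelled library, with 28 and 27 tags, and 3 in the lactate-labelled library, with 30, 30 and 29 tags. Both sites of the former were also in the latter, each with a ratio of 1.11 (intervals 0.642 to 1.93 and 0.637 to 1.96). The pseudogenes SLC7A5P1 and SLC7A5P2 are partial copies of SLC7A5, and the sources used here do not say how reads matching several places were treated.

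SLC7A11, the cystine transporter gene at chr4:138164097-138242349, had a single weak region at its upper end in each library and none inside. It held 9 tags in both, 0.573 and 0.595 per 1000000, with fold enrichments of 4.97 (chr4:138241967-138242478) and 4.24 (chr4:138242172-138242557). The ratio of 1.04 had an interval from 0.365 to 2.95, which shows how little such a low pileup can resolve. No other region lay within 50 kb outside the gene in either library. When a fold enrichment of at least 5 was required, SLC7A11 was marked in neither library. With the lists cut to the same number of strongest regions, it was marked in the untreated-labelled library alone.

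**Figure D1:**
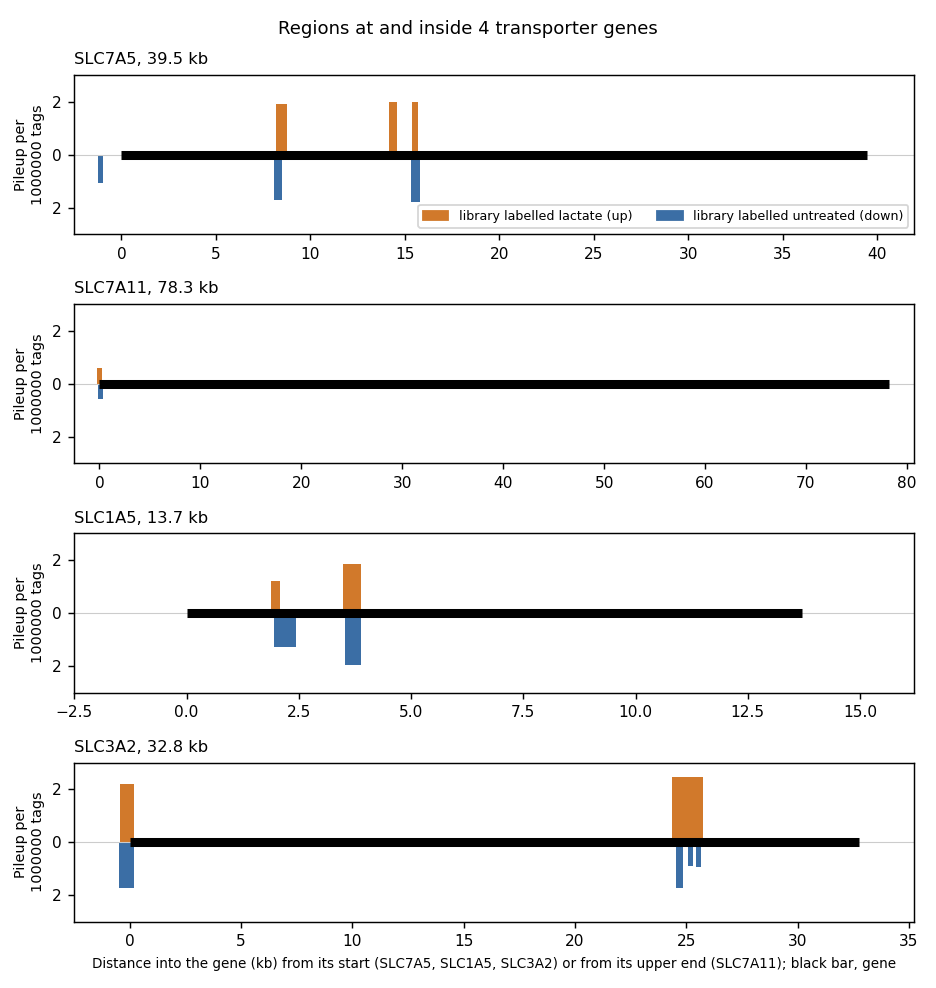
Regions at and inside SLC7A5, SLC7A11, SLC1A5 and SLC3A2, with distance in kb on the horizontal axis and summit pileup per 1000000 tags as bar height, upward for the lactate-labelled library and downward for the untreated-labelled library. SLC7A11 has regions only at its upper end, at 0.595 and 0.573, whereas the SLC1A5 regions lie inside the gene.

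The 250 bases before the annotated starts are shown for these genes, to set marked starts beside unmarked ones, followed by the other genes of highest fold enrichment whose outermost start stretch met a region in both libraries. Sequences are from RefSeq for GRCh38.p14, written 5′ to 3′ on the gene's strand. Stretches were matched for 32 of 40 genes, and SLC7A11 was not among them. Capitals mark matches, on either strand, to TGATGNAA, the core of the C/EBP-ATF response element, to TGACNNNGC, the core of the antioxidant response element, or to CACGTG, the E-box bound by MYC.
SLC7A5 start, chr16:87869508-87869757, minus strand, met by no region: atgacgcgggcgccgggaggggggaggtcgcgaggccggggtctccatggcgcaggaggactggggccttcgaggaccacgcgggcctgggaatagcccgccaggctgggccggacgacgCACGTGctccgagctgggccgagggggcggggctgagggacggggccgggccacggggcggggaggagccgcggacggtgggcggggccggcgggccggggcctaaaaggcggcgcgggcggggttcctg
SLC1A5 outermost start, chr19:46788595-46788844, minus strand, met by no region: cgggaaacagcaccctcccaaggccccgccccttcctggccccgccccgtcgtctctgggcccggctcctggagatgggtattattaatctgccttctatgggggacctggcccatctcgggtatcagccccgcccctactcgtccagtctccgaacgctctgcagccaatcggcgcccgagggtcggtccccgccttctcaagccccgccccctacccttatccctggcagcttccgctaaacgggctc
SLC1A5 inner start, chr19:46784815-46785064, minus strand, met in both libraries: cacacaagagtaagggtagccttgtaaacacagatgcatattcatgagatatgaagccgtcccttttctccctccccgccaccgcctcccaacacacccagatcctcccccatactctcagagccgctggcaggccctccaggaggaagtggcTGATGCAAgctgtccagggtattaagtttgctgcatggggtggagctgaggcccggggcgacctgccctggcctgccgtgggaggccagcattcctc
SLC3A2 outermost start, chr11:62855859-62856108, plus strand, met in both: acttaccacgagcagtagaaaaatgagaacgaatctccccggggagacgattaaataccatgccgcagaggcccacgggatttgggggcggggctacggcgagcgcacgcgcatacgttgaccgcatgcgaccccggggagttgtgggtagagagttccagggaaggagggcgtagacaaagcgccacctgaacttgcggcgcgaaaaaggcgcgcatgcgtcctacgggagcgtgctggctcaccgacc
SLC3A2 inner start, chr11:62880646-62880895, plus strand, met in both: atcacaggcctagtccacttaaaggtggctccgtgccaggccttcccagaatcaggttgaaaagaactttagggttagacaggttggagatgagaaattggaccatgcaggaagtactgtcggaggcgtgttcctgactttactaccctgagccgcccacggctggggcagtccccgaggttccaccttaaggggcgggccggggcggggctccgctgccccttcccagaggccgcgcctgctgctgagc
SLC36A4 start, chr11:93197992-93198241, minus strand, met in both: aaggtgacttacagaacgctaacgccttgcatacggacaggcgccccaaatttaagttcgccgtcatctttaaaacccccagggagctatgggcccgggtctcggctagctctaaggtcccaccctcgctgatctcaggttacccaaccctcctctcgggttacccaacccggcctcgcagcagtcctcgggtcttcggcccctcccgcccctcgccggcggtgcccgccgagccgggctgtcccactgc
SLC38A2 start, chr12:46372774-46373023, minus strand, met in both: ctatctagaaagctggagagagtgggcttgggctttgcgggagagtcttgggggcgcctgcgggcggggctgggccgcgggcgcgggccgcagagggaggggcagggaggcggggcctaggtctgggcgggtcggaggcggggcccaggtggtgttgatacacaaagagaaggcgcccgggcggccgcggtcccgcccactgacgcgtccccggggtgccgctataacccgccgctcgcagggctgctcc
SLC38A6 start, chr14:60980995-60981244, plus strand, met in both: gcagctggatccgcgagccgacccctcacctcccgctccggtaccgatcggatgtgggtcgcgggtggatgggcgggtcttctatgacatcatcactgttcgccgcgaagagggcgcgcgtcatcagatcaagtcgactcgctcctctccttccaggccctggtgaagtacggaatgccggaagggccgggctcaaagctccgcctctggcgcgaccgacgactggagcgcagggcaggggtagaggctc
SLC38A7 start, chr16:58684771-58685020, minus strand, met in both: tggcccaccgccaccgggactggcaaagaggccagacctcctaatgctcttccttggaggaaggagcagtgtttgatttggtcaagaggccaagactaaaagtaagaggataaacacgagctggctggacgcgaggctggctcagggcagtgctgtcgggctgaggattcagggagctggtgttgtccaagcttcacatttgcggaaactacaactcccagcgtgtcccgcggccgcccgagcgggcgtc

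In these stretches the inner SLC1A5 start held a TGATGNAA match and the SLC7A5 start an E-box, and the other 7 held none of the 3 motifs. Over all 54 stretches of the 40 genes, 2 held TGATGNAA (3.7%, against 3.14% of 35116 stretches in the table), 6 held TGACNNNGC (11.1% against 10.9%) and 8 held CACGTG (14.8% against 6.34%). The 8 with an E-box belonged to SLC1A5, SLC1A7, SLC36A1, SLC38A5, SLC43A1, SLC7A5, SLC7A7 and SLC7A8. Several stretches belong to the same gene, and a match is a description of letters only. CG dinucleotides were also counted. At the outermost start, the 8 genes marked in both libraries that have a stretch held 12 to 43 CGs with a median of 24, and the 15 such genes marked in neither held 1 to 30 with a median of 7. Over all protein-coding genes the medians were 21 and 8, in the same order as for the transporter genes. Among the unmarked, SLC38A12 with 30, SLC1A1 with 24 and SLC1A5 with 19 had CG-rich starts.

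At gene ends, 14 of the 40 transporter genes were marked in the untreated-labelled library (35.0%, interval 20.6 to 51.7) and 13 in the lactate-labelled library (32.5%, interval 18.6 to 49.1). Over all protein-coding genes the shares were 43.5% and 49.5%. Marked in both libraries were 11 (against a background of 39.8%), in the lactate-labelled library alone 2 (9.69%), in the untreated-labelled library alone 3 (3.74%) and in neither 24 (46.8%). A gene-end region with a fold enrichment of at least 5 was present in 5 genes in each library, against 23.3% and 30.3% of all genes. The median highest gene-end fold enrichment was 4.74 over the 14 and 4.67 over the 13, against 5.14 and 5.49 over all marked genes of the same list. The shares and medians of the transporter genes were thus the lower ones in both libraries, and whether they differ from other genes was not tested.

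By subfamily, all 3 SLC43A genes were marked in the untreated-labelled library and 2 in the lactate-labelled library. In the untreated-labelled library the SLC43A1 region lay at the far end. The SLC43A3 region of that library had a fold enrichment of 2.63, at a percentile of 0.725. SLC38A had 5 of 12 marked in each library, with 4 in both and 6 in neither. SLC7A had 3 of 13 marked in each library, with 2 in both, SLC1A had 1 of 6, SLC36A had 1 of 4 and SLC3A had 1 of 2, the last 3 with the same gene in both libraries. By role, 2 of 8 light chains of heteromeric transporters were marked in each library, as was 1 of 5 cationic amino acid transporters, and none of the 4 glutamate transporters SLC1A1, SLC1A3, SLC1A6 and SLC1A7.

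The strongest gene-end regions lay at SLC36A4 and SLC38A2. SLC36A4 carried 23 tags with a fold enrichment of 7.10 at its start in the untreated-labelled library (chr11:93197406-93198062) and 35 tags with 9.0 in the lactate-labelled library (chr11:93197379-93198062). These lay at the percentiles 90.7 and 96.1 of their lists. The pileup ratio was 1.58, with an interval from 0.907 to 2.80. SLC38A2, the gene of the sodium-coupled transporter SNAT2 that amino acid starvation induces, was marked at both ends. Its start region held 28 tags with 7.75 in the untreated-labelled library (chr12:46372718-46373025) and 26 with 6.19 in the lactate-labelled library (chr12:46372685-46373012), and the summits fell at the same base, 109 bp upstream of the start. This region also lies at an end of the antisense gene SLC38A2-AS1. The far end of SLC38A2 held 2 regions of 16 and 12 tags in the untreated-labelled library and 1 of 24 in the lactate-labelled library. The last had a fold enrichment of 6.22, the highest gene-end value of SLC38A2 in that library.

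Among the lysosomal members, SLC38A9, which signals arginine to mTORC1, held 11 and 12 tags at its start, with fold enrichments of 4.38 and 4.42. SLC38A7, a lysosomal glutamine exporter gene, held 20 and 19 tags, with 4.59 and 4.67. Both pairs of values were close, with ratios of 1.13 (interval 0.457 to 2.83) and 0.986 (interval 0.498 to 1.95). SLC38A6 was marked at its start, which faces the start window of TRMT5, with 12 and 13 tags at the shared region, which also marks TRMT5. A second region of 13 tags, which also lies at an end of TRMT5, was present in the untreated-labelled library.

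SLC1A4, a neutral amino acid exchanger gene, carried 2 adjacent start regions of 19 and 15 tags in the untreated-labelled library and 1 spanning region of 17 tags in the lactate-labelled library. SLC7A1, the main cationic amino acid transporter gene, had 2 start regions in each library, with 14 and 16 tags in the untreated-labelled library and 23 and 12 in the lactate-labelled library. The stronger of them was thus not the same in the 2 libraries. SLC43A2, the gene of the facilitator LAT4, held 15 and 18 tags at the gene end on its start side, with 4.47 and 5.22. Their summits lay 1.33 and 1.34 kb from the nearest annotated start. SLC43A3, which carries purine nucleobases although it belongs to the subfamily by sequence, held 12 tags with 2.63 and 24 tags with 4.53 at its upper end. Its ratio of 2.08 was the highest of the gene-end pairs, and its interval, from 0.999 to 4.56, still reached 1.

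**Figure D2:**
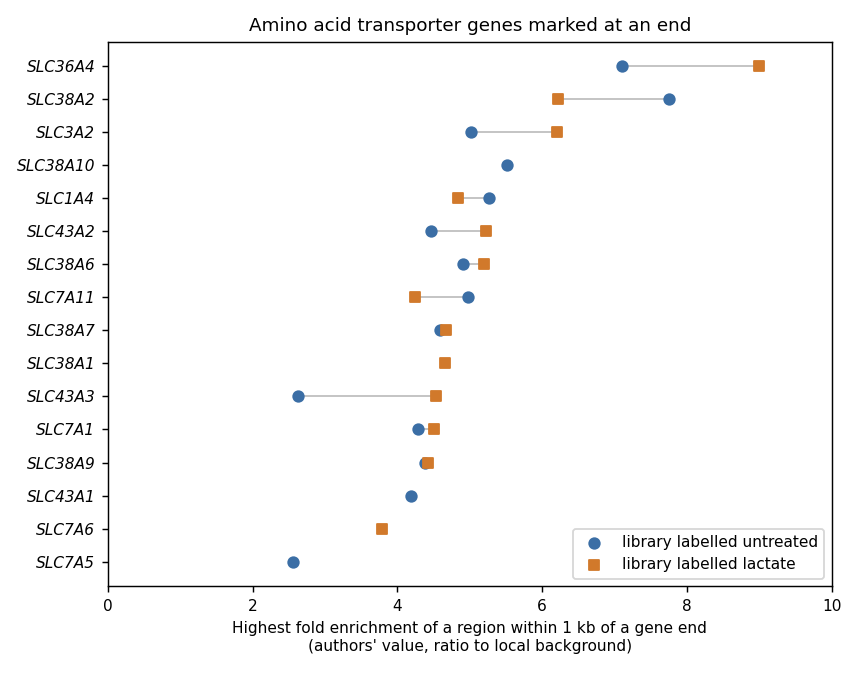
Highest fold enrichment of a gene-end region (horizontal axis, ratio to local background) for the 16 transporter genes marked in at least 1 library, with circles for the untreated-labelled library and squares for the lactate-labelled library. SLC36A4 and SLC38A2 lie above 6 in both, and 5 genes have a point in 1 library only. At SLC38A2, SLC38A6 and SLC7A1 the points of the libraries belong to regions that do not overlap.

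SLC38A1 and SLC7A6 were marked in the lactate-labelled library alone. At SLC38A1, the gene of the glutamine transporter SNAT1, a region at chr12:46268652-46269337 held 17 tags with a fold enrichment of 4.66. Its summit lay 5 bp from the gene end on the start side and 1.05 kb from the nearest annotated start. A weaker one, with 10 tags and 2.93, had its summit 37 bp from that annotated start. In the untreated-labelled library the nearest region to either end of SLC38A1 was 11994 bp away. SLC7A6, which encodes the light chain y+LAT2, carried 3 start regions of 22, 19 and 23 tags, with fold enrichments of 3.41, 3.03 and 3.79 (the last at chr16:68265324-68265750), all in the lower part of that list. In the other library the nearest region to an end of the gene was 6110 bp away. Both SLC38A1 and SLC7A6 share the marked end with a long noncoding RNA gene. Neither was marked in either library when a fold enrichment of at least 5 was required or when the lists were cut to the same number of strongest regions.

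SLC38A10, SLC43A1 and SLC7A5 were marked in the untreated-labelled library alone. SLC38A10 carried a region at chr17:81295172-81295456 with 18 tags and 5.52, its summit 7 bp from the start, and the nearest region of the other library was 5331 bp from an end. SLC43A1, the gene of the facilitator LAT3, was marked at its far end and not at its start, with 15 tags and 4.19 at chr11:57485439-57485638. Of these 3, SLC38A10 alone kept its state when the summit had to lie in the window or the window was 0.5 kb. All 5 genes marked in 1 library alone lay over 5 kb, at the marked end, from any region of the other library, where the background shares were 7.86% for the lactate-labelled library and 2.90% for the other. The absence of a region means that no peak passed the authors' threshold, not that tags were absent.

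Inside the genes, beyond the end windows, 23 transporter genes held a region in the untreated-labelled library (57.5%, against 36.9% of all protein-coding genes) and 22 in the lactate-labelled library (55.0% against 40.2%). In both libraries there were 17 such genes (background 32.2%), in the lactate-labelled library alone 5 (7.94%) and in the untreated-labelled library alone 6 (4.66%). The transporter genes are long, with a median of 46.8 kb against 24.1 kb. Per 100 kb of gene interior they held 1.92 regions in the untreated-labelled library and 2.31 in the lactate-labelled library, against 1.43 and 1.68 over all genes. In total they held 39 and 47 inside regions, of which 3 and 4 also touched an end window. Of the 39, 24 overlapped a region of the lactate-labelled library, and of the 47, 23 overlapped one of the untreated-labelled library.

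No gene had more inside regions in sum than SLC43A2, with 4 in each library. SLC1A3, the glial glutamate transporter gene GLAST, had 4 in the untreated-labelled library and 3 in the lactate-labelled library. SLC7A1 had 1 and 4, SLC38A1 had 2 and 4, and SLC38A11 had 2 and 3. SLC36A1, a lysosomal and intestinal proton-coupled transporter gene, had 0 and 4, the strongest with 18 tags and 6.79, its summit 66 bp from an inner annotated start. SLC38A5, at 11.7 kb a short gene, had 1 shared region, with 12 and 21 tags. SLC43A3 had 1 region of 30 tags in the untreated-labelled library and 2 of 17 and 22 in the lactate-labelled library. Per 10 kb of gene, averaged over the libraries, SLC38A5 held 0.853, SLC43A3 0.728 and SLC43A2 0.658, next after SLC1A5. SLC36A1 is the longest of the 40 genes, and its 4 regions amount to 0.189 per 10 kb.

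The largest pileups of any transporter gene were inside SLC38A8, which carries neutral amino acids in the eye and brain. Its region held 77 tags with a fold enrichment of 9.31 in the untreated-labelled library (chr16:84013815-84014696) and 93 tags with 9.42 in the lactate-labelled library (chr16:84013862-84014707), and each had 2 summits. In depth-scaled units these were 4.91 and 6.15 per 1000000 tags. The site lies over 28 kb from any annotated start of the gene. The highest fold enrichment was at chr9:4531014-4531737 inside SLC1A1, the epithelial and neuronal glutamate transporter gene, with 31 tags and 11 in the untreated-labelled library. It lay at the percentile 99.5 of that list. In the lactate-labelled library the same stretch was covered by 2 regions of 17 tags each. For the pair of summits 19 bp apart the ratio was 0.569, with an interval from 0.296 to 1.06.

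Regions inside a gene but at none of its ends, in either library, were found for 15 transporter genes, against 18.6% of all genes. They were SLC1A1, SLC1A3, SLC1A5, SLC36A1, SLC38A3, SLC38A4, SLC38A5, SLC38A8, SLC38A11, SLC38A12, SLC3A1, SLC7A2, SLC7A8, SLC7A9 and SLC7A14. Over all 40 genes, some inside regions stood at inner starts. Within 1 kb of one lay 7 in the untreated-labelled library, in SLC1A3, SLC1A5, SLC3A2 and SLC43A2, and 5 in the lactate-labelled library, in SLC1A5, SLC36A1, SLC3A2 and SLC7A8. With any annotated start as the criterion, 13 of the 32 genes with a start in the table were marked in each library, against 46.1% and 52.0% of all such genes. SLC1A5 then joined the genes marked in both, and SLC43A2 was marked in the untreated-labelled library alone.

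SLC3A1, the kidney heavy chain gene, held 2 inside regions of 7 and 15 tags in the untreated-labelled library and none in the other. Its light chain partner SLC7A9 held 1 shared site, with 8 and 10 tags. SLC38A12 held 1 shared site of 13 and 20 tags. SLC38A4, a liver transporter gene, held 1 region of 8 tags in the untreated-labelled library and 2 of 9 and 7 in the lactate-labelled library, at other places. SLC38A3 held 1 region of 9 tags and SLC7A2 1 of 9, both in the untreated-labelled library alone. SLC7A14 held 2 regions of 8 and 13 tags and SLC7A8, the gene of the light chain LAT2, 1 of 12, all in the lactate-labelled library alone. Apart from those of SLC7A9 and SLC38A12, the sites in these 8 genes were not shared.

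**Figure D3:**
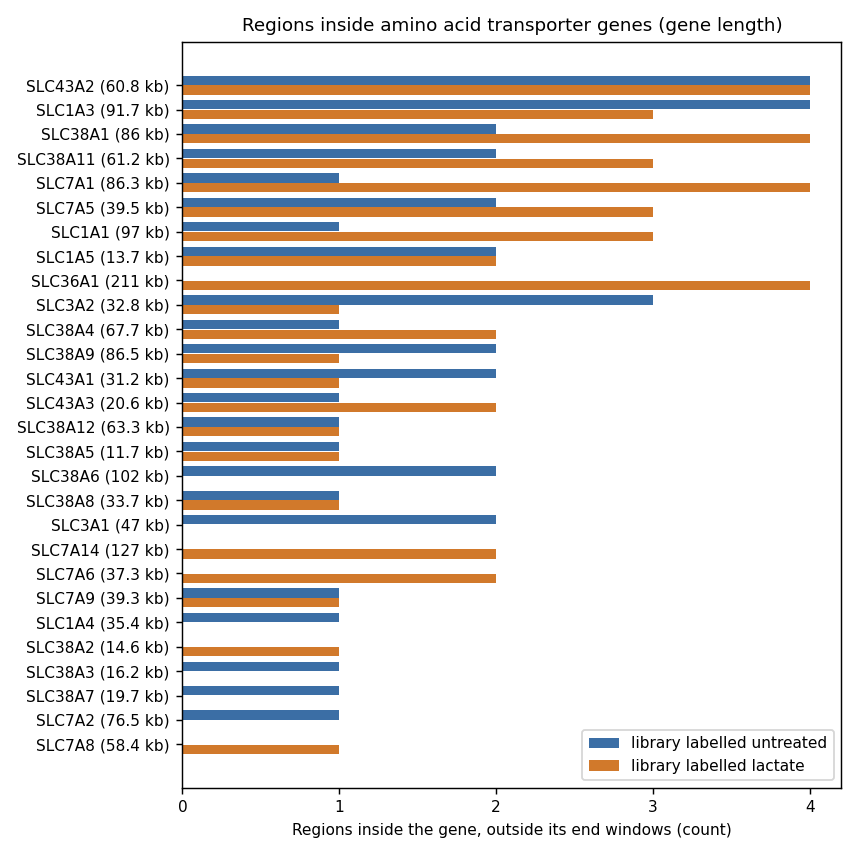
Number of regions inside each transporter gene outside its end windows (horizontal axis, count), with the gene's length in kb beside its symbol, for the untreated-labelled library and the lactate-labelled library. SLC43A2 holds 4 in each library, and SLC36A1 holds 0 and 4.

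No region lay at an end or inside in either library for 9 genes, against 28.2% of all protein-coding genes. These were the cerebellar and retinal glutamate transporter genes SLC1A6 and SLC1A7, the SLC36A members SLC36A2 and SLC36A3, the cationic SLC7A3 and SLC7A4, and the light chains SLC7A7, SLC7A10 and SLC7A13. Several are known for expression in brain, kidney or testis. Their median length was 27.4 kb, against 53.8 kb for the other 31. The nearest region to an end of SLC7A3 was 136926 bp away in the untreated-labelled library and 136781 bp in the lactate-labelled library. At SLC7A4, 3.84 kb long, it was 2558 and 2661 bp away.

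Where both libraries had a region, their pileups were compared over 37 pairs of overlapping regions. In 5 of these the interval of the ratio, lactate-labelled library over untreated-labelled library after scaling to tags, left out 1. All 5 were inside a gene and higher in the lactate-labelled library. At SLC38A1, 15 tags (0.956 per 1000000) stood against 28 (1.85), a ratio of 1.94 with an interval from 1.00, rounded, to 3.90. At SLC38A9, 7 tags stood against 18, a ratio of 2.67 (interval 1.06 to 7.56). At SLC7A1, 13 stood against 27, a ratio of 2.16 (interval 1.07 to 4.55). The other 2 set the weaker untreated-labelled regions inside SLC3A2, with 14 and 15 tags, against the 1 wide region of 37 tags, with ratios of 2.74 (interval 1.45 to 5.49) and 2.56 (interval 1.37 to 5.02). In these pairs, that of SLC38A1 apart, the summits lay 274 to 846 bp apart, so that the pileups were read at different places.

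With the pairs limited to summits within 200 bp, a limit set after the values were seen, 29 remained and SLC38A1 was the 1 whose interval left out 1. An interval that holds 1 does not show equal pileups. The median ratio was then 1.15 for the 12 pairs at gene ends (range 0.779 to 2.08). For the 17 inside it was 1.04 (range 0.569 to 1.94). Without the limit it was 1.15 for 14 and 1.11 for 23. Over all such pairs of the 2 lists the median was 1.18 with the limit (26328 pairs) and 1.19 without it (30958 pairs), and all 5 intervals named above hold that median except those of SLC3A2.

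**Figure D4:**
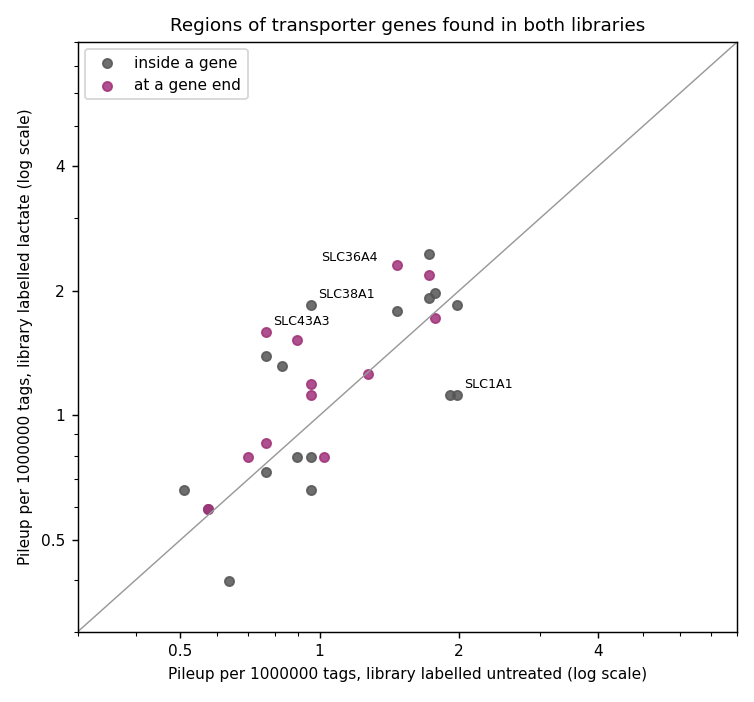
Summit pileup per 1000000 tags in the untreated-labelled library (horizontal, log scale) and the lactate-labelled library (vertical, log scale) for the 29 pairs of regions of transporter genes with summits within 200 bp, and the line of equality. SLC38A1 lies at 0.956 and 1.85, and SLC1A1 at 1.98 and 1.12.

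SLC7A5 stood apart in its local background, the tag level around a region that the fold enrichment divides by. Recomputed from pileup and fold enrichment, it was 7.74 and 10.0 tags at the inside regions of the untreated-labelled library, higher than at 98.1% and 99.2% of its regions. In the lactate-labelled library it was 8.68, 11.6 and 11.8 tags, higher than at 98.2% to 99.4%. The start region, with 17 tags, had a background of 6.02. The medians over the lists were 2.12 and 2.20. The regions inside SLC7A5 therefore combined pileups of 27 to 30 tags, about those of the SLC38A2 start, with fold enrichments of 2.41 to 3.20. Next came SLC38A8, with 7.38 and 8.98, and the SLC7A6 start, with 5.34 to 5.74. SLC1A5 and SLC3A2 ranged from 3.74 to 5.08. At SLC7A11, by contrast, the background was 1.01 and 1.36, with 4.28% and 22% of each list lower. What raised the background at SLC7A5 was not tested.

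**Figure D5:**
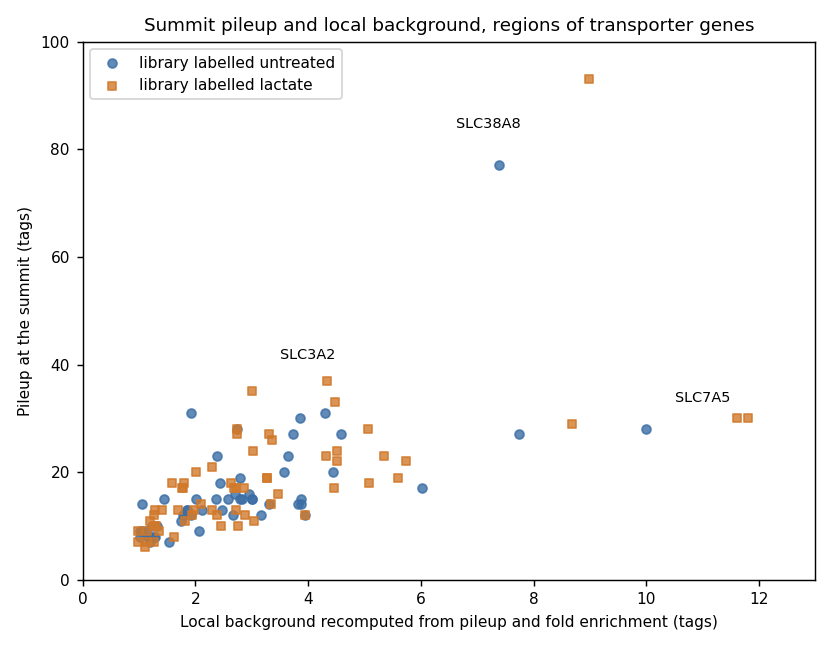
Summit pileup (vertical, tags) against recomputed local background (horizontal, tags) for all regions at or inside the transporter genes, with circles for the untreated-labelled library and squares for the lactate-labelled library. The 3 points of highest background, from 10.0 to 11.8, belong to SLC7A5, and the 2 of highest pileup, 77 and 93, to SLC38A8.

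Genes that sense or use amino acids gave a further set of counts, with examples picked after their values were seen. Of 25 genes of amino acid sensing by mTORC1, 16 were marked at an end in the untreated-labelled library and 22 in the lactate-labelled library, beside the background of 43.5% and 49.5%. MTOR itself had gene-end fold enrichments of 7.76 and 8.40, and SESN3, a sestrin gene, 8.80 and 9.46. RHEB had 8.89 and 4.77, and MLST8 and RPTOR were marked in neither library. Marked in the lactate-labelled library alone were CASTOR1, CASTOR2, LAMTOR3, NPRL2, RRAGA, RRAGD and TSC1, and in the other alone LAMTOR2. Over all protein-coding genes these shares were 9.69% and 3.74%. Of 12 genes of the amino acid response, 7 and 10 were marked, with ATF4, its main transcription factor, at 3.60 and 3.64. PSAT1 had 8.19 and 6.44. CEBPG, CHAC1 and PHGDH were marked in the lactate-labelled library alone, and CEBPB and SHMT2 in neither. Of 8 genes of glutamine and cystine use, 7 and 8 were marked. GCLM, a glutathione synthesis gene, had 6.62 and 8.06, and GPX4 had 3.77 and 2.33. Of 11 other genes for amino acid or peptide transporters, SLC6A6 and SLC6A15 were marked in both libraries and 9 in neither. Over all protein-coding genes these shares were 39.8% and 46.8%. No test compared these lists.

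For the cell type, 6 and 9 of 12 squamous epithelium markers were marked, beside 43.5% and 49.5% of all protein-coding genes. DSG3, KRT14 and TP63 were marked in neither library. The same background applies to the other marker lists. Of 6 markers each, fibroblast genes had 2 and 3 marked, blood genes 3 and 3, endothelial genes 2 and 0, and liver genes 0 and 1. CSF1R and PDGFRB, of the blood and fibroblast lists, had the same fold enrichments, 4.53 and 5.15, and whether a single region marks both was not examined. Marking is not expression, so these counts describe the lists and do not type the cells.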

How the data were processed

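Per the labels' protocols, digitonin-treated cells on lectin-coated beads were cut by pA-Tn5. Per the submitters' processing notes, the tools were BWA, MACS2 2.1.0 and fastp 0.20.0, on hg38. Per the file headers, the authors called peaks in each library without a control keeping q values to 0.05, tags shifted by -100 bp and extended to 200 bp. The authors' deposited pileup is an unscaled signal, counted in tags, and the deposited fold enrichment is a ratio to the local background.

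Summits of 1 start and end were collapsed to the one of highest fold. Local background and −log10 p (Poisson upper tail) were recomputed from pileup and fold. Genes and strands came from RefSeq tables for GRCh38.p14. Without a genome sequence, exons and introns were not assigned. Depth was 15696147 and 15120031 tags, which are not independent molecules.

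Membership rests on gene symbols, but this gene family, its members, the lists and the comparisons were taken up with earlier results of these data known. The rule for named genes took SLC7A5, SLC7A11, SLC1A5 and SLC3A2, all members marked in 1 library, the 6 highest gene-end folds and 6 highest inside counts per library, the 4 densest genes and members with inside regions only. The limit of summits within 200 bp, and of an outermost start for the 4 further sequences, was added after the values were seen. Gene-end calls equalled those of bedtools 2.31.1 (8721 and 9914 genes). In a check on simulated regions, 200 of 200 planted ones were recovered. Alternatives varied the peak threshold, list length, window and overlap. Software was matplotlib 3.10.9, SciPy 1.17.1, numpy 2.4.6 and pandas 2.3.3 under Python 3.11.15.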

Additional observations from a re-analysis of the deposited data

How the results depend on the processing

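The counts of marked transporter genes changed with the peak threshold. At a fold enrichment of at least 5, 5 genes were marked in each library and 3 in both, while inside regions fell to 9 in 8 genes in the untreated-labelled library and 16 in 12 genes in the lactate-labelled library. With equal lists of the 21840 strongest regions, 7 genes were marked in the untreated-labelled library and 5 in the lactate-labelled library, 4 of them in both and 1 in the latter alone, and the inside regions numbered 17 in 14 genes and 15 in 12 genes. When −log10 p had to reach 7, inside regions numbered 19 and 25, and SLC7A11 was among the genes marked in neither library. Genes marked in the untreated-labelled library alone fell from 3 to 1, SLC38A10, with a window of 0.5 kb and with the summit in the window. Genes marked in the lactate-labelled library alone rose from 2 to 4 with a window of 2 kb, and to 4 with any annotated start, an alternative chosen after seeing the data. With a reciprocal overlap of at least 50% of each region, 13 of the shared inside regions were left. Pairs whose ratio interval leaves out 1 rose from 1 to 5 without the limit on summit distance, an alternative added after seeing the data. Of the recomputed counts, 47 stayed within 1.5 times the reported one and 23 did not. SLC38A6 (4.64 in the untreated-labelled library) and SLC7A6 (3.41) had a lower highest fold with the 0.5 kb window. No paired analysis was possible because each group has 1 library. The low pileups, down to 6 tags, limit what can be told apart between the libraries.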

Other observations

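Around the transporter genes, within 50 kb outside their end windows, the median number of regions was 2.5 in the untreated-labelled library and 2.0 in the lactate-labelled library, against 2.0 and 3.0 over all protein-coding genes. SLC7A6 had 7 such regions in each library, SLC3A2 had 6 and 7, SLC38A10 had 6 in each, and SLC38A3 had 5 and 10. SLC1A6, SLC36A2, SLC38A4, SLC7A3, SLC7A9 and SLC7A11 had 0 in both. SLC38A1, SLC38A2 and SLC38A4 lie on chromosome 12, where SLC38A2 was marked at both ends in both libraries, SLC38A1 at its start in the lactate-labelled library alone, and SLC38A4 at neither end.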
